A study of Mus musculus with 8 samples.

Results

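Mouse thyroid follicular cell organoids (TFCOs) were compared with whole mouse lung by bulk RNA sequencing. The 6 libraries of this comparison, of 8 in the series, were chosen by their labels alone: early and late TFCOs of the lines mThy14 and mThy16, and lung tissues 1 and 2. A TFCO is a cystic epithelial culture grown in basement membrane extract, and each line was started from the cells of a single thyroid. Early and late refer to the number of passages. All animals were adult wild-type C57BL/6 mice. The TFCOs grew in a medium with R-spondin 3 conditioned medium (a Wnt potentiator), A83-01 (an inhibitor of TGFβ receptors), forskolin (an activator of cAMP synthesis), EGF, FGF10, B27, N-acetylcysteine and nicotinamide, whereas the lung tissue was taken without culture, so organ of origin, culture and cell mixture differ together. The other 2 libraries, thyroid tissues 1 and 2, served to check how the libraries had been processed. The early and late libraries of a line share their animal, so the comparison rested on 2 lines against 2 tissues, with the passages of a line averaged first.

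Thyroid and lung epithelium both arise from the anterior foregut endoderm, and both carry the transcription factor Nkx2-1. In the thyroid follicular cell Nkx2-1 acts with Pax8, Foxe1 and Hhex, and the cell takes up iodide, couples it to the protein thyroglobulin and releases thyroid hormone. In the lung Nkx2-1 is active in alveolar type 2 cells, which make the surfactant proteins, and in the secretory cells of the airway. Whole lung also holds flat alveolar type 1 cells, ciliated cells, a dense capillary network, leukocytes and connective tissue, which an epithelial culture is not set up to keep.

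The letters CTCAAG lie at the core of the recognition sequence of Nkx2-1. They were searched on both strands in the RefSeq promoters (build GRCm38.p6, 250 bases before to 50 bases after a start) of the thyroid hormone synthesis genes and of the surfactant and alveolar type 2 genes. These groups were taken because follicular cells and alveolar type 2 cells both carry this factor. Whether their members are its targets was not tested. Of the 22 thyroid genes, 14 had a promoter in the table and 3 of these 14 (21.4%) held the letters, namely Duox2, Slc26a4 and Kcne2. Of the 16 surfactant genes, 12 had a promoter and 2 (16.7%) held the letters, Sftpb and Sftpa1. Among all 27025 genes of the table the share was 18%. The match is a description of these windows and not a binding site, and Tg, Tshr, Sftpc and Sftpd had no entry. Shown here are the 250 bases before the start of both surfactant genes with the letters, of which the cultures held much of Sftpb and almost nothing of Sftpa1, and of Duox2, which encodes the oxidase that makes hydrogen peroxide for iodination. The capitals mark the letters, which stand 100 and 15 bases before the start in Sftpb, 166 bases before it in Sftpa1, and on the opposite strand 106 bases before it in Duox2.
Sftpb, chr6:72304360-72304609, plus strand: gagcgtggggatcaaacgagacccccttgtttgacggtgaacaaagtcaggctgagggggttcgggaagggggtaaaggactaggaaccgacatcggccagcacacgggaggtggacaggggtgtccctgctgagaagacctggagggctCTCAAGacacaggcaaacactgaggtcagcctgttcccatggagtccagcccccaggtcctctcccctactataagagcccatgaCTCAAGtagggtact
Sftpa1, chr14:41131538-41131787, plus strand: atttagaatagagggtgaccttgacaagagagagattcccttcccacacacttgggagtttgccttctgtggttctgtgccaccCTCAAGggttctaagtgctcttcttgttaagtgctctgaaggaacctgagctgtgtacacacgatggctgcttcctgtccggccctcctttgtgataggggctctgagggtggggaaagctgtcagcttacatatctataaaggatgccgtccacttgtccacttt
Duox2, chr2:122298228-122298477, minus strand: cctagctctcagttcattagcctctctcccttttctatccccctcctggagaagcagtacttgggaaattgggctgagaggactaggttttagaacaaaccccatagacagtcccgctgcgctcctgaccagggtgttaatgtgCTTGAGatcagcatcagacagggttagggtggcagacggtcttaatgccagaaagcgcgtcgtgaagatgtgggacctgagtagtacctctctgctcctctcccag

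Values are read counts per gene divided by 1 size factor per library, called normalized counts here, and between 9755081 and 16904865 reads per library lay on genes. Earlier results from the expression values of these same libraries divided them into 2 sets that cross the tissues. No sample label names these sets. Genes that follow the split, such as Krt13 and Lars2 below, illustrate it and are no independent evidence for it. The first set holds the 4 TFCO libraries and thyroid tissue 1, and the second holds thyroid tissue 2 and both lung tissues. Thyroid tissues 1 and 2 carry the same label, yet 6710 of 14703 genes tested (45.6%) lay 1 or more apart between them on the log2 scale. The SD over genes was 2.06 for that difference, 0.76 between the lung tissues and 2.67 between TFCOs and lung. Krt13, a keratin of stratified epithelium, had 212 to 562 normalized counts in TFCOs and 208 in thyroid tissue 1, but was at 0 in thyroid tissue 2 and in both lung tissues. Lars2, a mitochondrial leucyl-tRNA synthetase, had the opposite pattern, with 220.2 to 319.5 in TFCOs, 150.2 in thyroid tissue 1, 117362 in thyroid tissue 2 and 78425 and 98124 in lung. Organ and set cannot be told apart in a direct comparison of TFCOs with lung. Each difference is therefore given directly. For many genes it is also given from a fit with the set of libraries as a term, which subtracts the difference between the thyroid tissues. A difference given only directly may change with the set too. For Krt13 the direct log2 difference of 8.59 (SE 2.23, adjusted p = 0.0372) became 0.88 (adjusted p = 0.729), and for Lars2 -8.38 became 1.22 (adjusted p = 0.298). The second value rests on 1 thyroid tissue per set, and real differences between those glands enter it too.

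**Figure D1:**
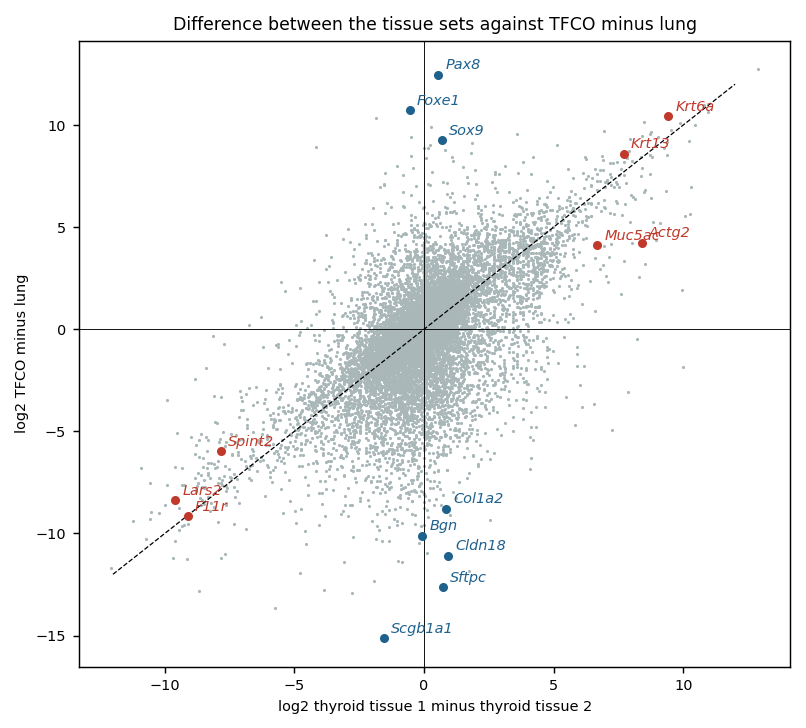
Each grey point is 1 of 14703 genes: the x axis gives log2 thyroid tissue 1 minus thyroid tissue 2, the y axis log2 TFCO minus lung, both on log2(normalized counts + 1), and the dashed line marks equal values. Of the genes in red, Krt13 and Lars2 lie close to the dashed line and lose most of their difference once the set is a term. Actg2 and Muc5ac, also in red, lie below the line at 8.40 and 6.68 on the x axis. Their differences of 4.24 and 4.11 change sign with the set as a term. Of the genes in blue, Pax8 at 12.47 and Sftpc at -12.64 lie at 0.54 and 0.73 on the x axis, and Scgb1a1 at -1.54.

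Between TFCOs and lung tissue, 1445 of the 14703 genes tested were higher in TFCOs (9.83%) and 1990 were lower (13.5%), at an adjusted p under 0.05 with limma. All 4 TFCO libraries lay above both lung tissues for 5056 genes (34.4%) and below both for 4892 genes (33.3%). These shares over all genes, called or not overlapping, are the background for the list counts below. With the set as a term 29 genes were higher (0.197%) and 145 lower (0.986%), and 150 of these 174 genes were also called directly in the same direction. Of the 3435 genes called directly, 3412 kept their sign and 2360 (68.7%) kept at least 0.5 of their size, 894 of 1445 higher genes and 1466 of 1990 lower genes. With the 4 TFCO libraries entered singly and the line as a replicate block, 2303 higher and 2181 lower genes passed. In bulk samples fewer cells of a type and less RNA per cell cannot be told apart, which holds for every difference here. The direct count rested on both lung tissues, since 72 higher and 247 lower genes passed without lung tissue 1 and 62 higher and 186 lower without lung tissue 2. It was 3468 higher and 3518 lower without thyroid tissue 1 and 3475 higher and 3504 lower without thyroid tissue 2, whose difference from each other enters the estimate of the spread. With 2 against 2, an exact permutation test of a single gene cannot give a two-sided p below 0.333, so single genes were tested with limma over all genes.

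**Figure D2:**
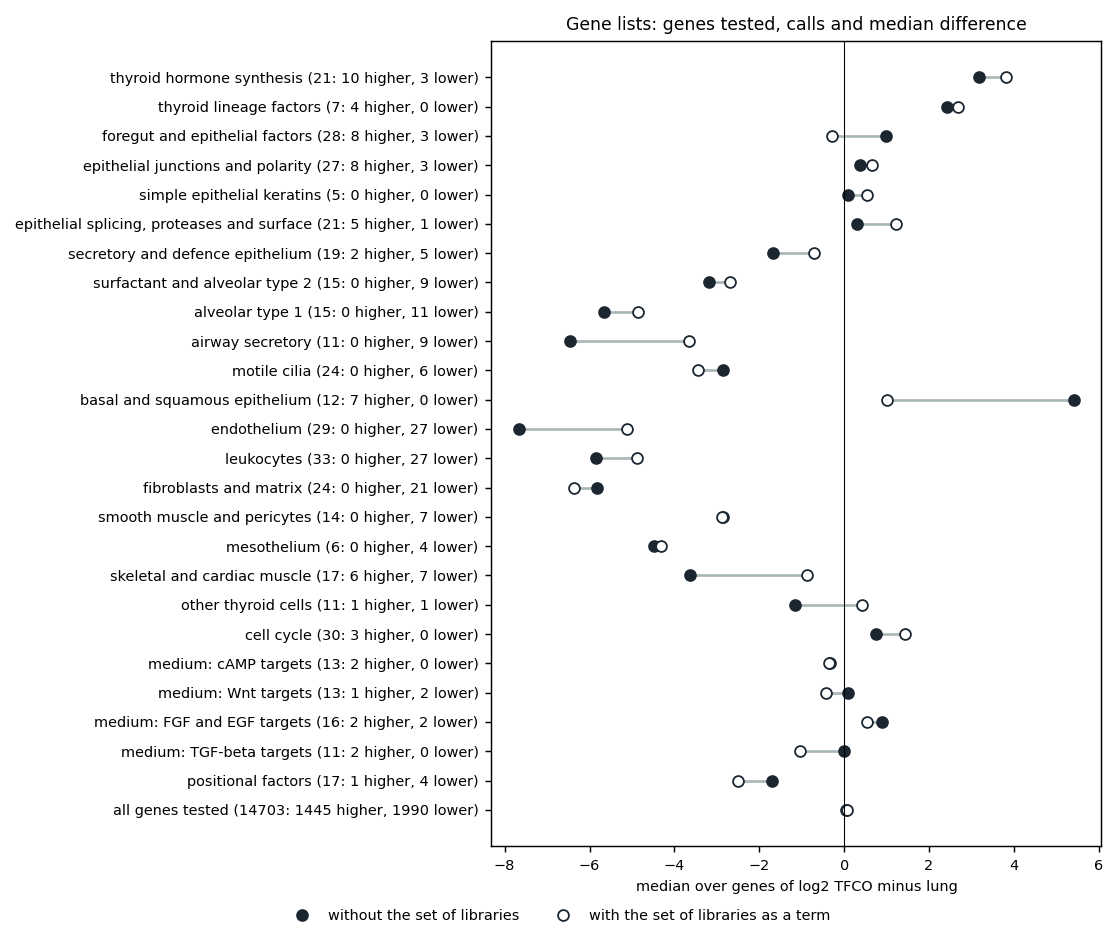
Rows are gene lists, with the genes tested and the numbers called higher or lower in TFCOs in parentheses. Filled points give the median log2 TFCO minus lung over the genes of a list and open points the same with the set of libraries as a term; the medians of endothelium (-7.66 and -5.11) and of thyroid hormone synthesis (3.18 and 3.82) keep their side of 0, and that of basal and squamous genes moves from 5.41 to 1.01.

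The transcription factors of the follicular cell were high in TFCOs and near 0 in lung for Pax8 and Foxe1, and present in both for Hhex and Nkx2-1. Pax8, the paired-box factor of follicular cells, had 8273 and 7559.6 normalized counts in the early and the late mThy14 culture, 4259 and 3925 in the mThy16 pair, and 0 and 0 in lung tissues 1 and 2. It was at 0 in both lung tissues, so TFCOs were at least 5296-fold higher (against 3 reads over the group). Its log2 difference of 12.47 (SE 0.47, adjusted p = 0.000154) was 11.94 with the set as a term (adjusted p = 0.0363). Foxe1, the forkhead factor of the thyroid primordium, had 4311 and 5080.3 normalized counts in the early and the late mThy14 culture, 1157 and 878 in the mThy16 pair, and 0 and 0.674 in lung tissues 1 and 2. Every TFCO library lay far above the lung, with a log2 difference of 10.71 (SE 0.76, adjusted p = 0.000596) and 11.27 with the set as a term at an adjusted p of 0.0454. Hhex, a homeobox factor that the lung tissues also held, ranged over 1311 to 5824 in TFCOs against 323 and 233 in lung. This was a log2 difference of 3.36 (SE 0.63, adjusted p = 0.015), and 4.25 with the set as a term at an adjusted p of 0.135. Glis3, a zinc-finger factor of hormone-producing follicular cells, rose by 1.90 (SE 0.50, adjusted p = 0.0379) on the log2 scale. With the set as a term the Glis3 difference was 2.68 (adjusted p = 0.137), and edgeR gave an adjusted p of 0.0523. Of the 7 lineage factors tested, 4 rose and 0 fell (median log2 difference 2.42, and 2.68 with the set as a term, with calls of 2 higher and 0 lower), beside a median of 0.05 over all genes.

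Nkx2-1, which both organs use, had 12088 and 11848 normalized counts in the early and the late mThy14 culture, 4422 and 3521 in the mThy16 pair, and 2889.8 and 1721 in lung tissues 1 and 2. The TFCO libraries lay above both lung tissues but the mThy16 libraries were close to lung tissue 1, and the Nkx2-1 log2 difference of 1.62 (SE 0.63, adjusted p = 0.0916) did not pass the test, with an unadjusted 95% interval of 0.14 to 3.11 and 0.80 with the set as a term at an adjusted p of 0.77. Thyroid tissues 1 and 2 held 7778 and 4402.

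**Figure D3:**
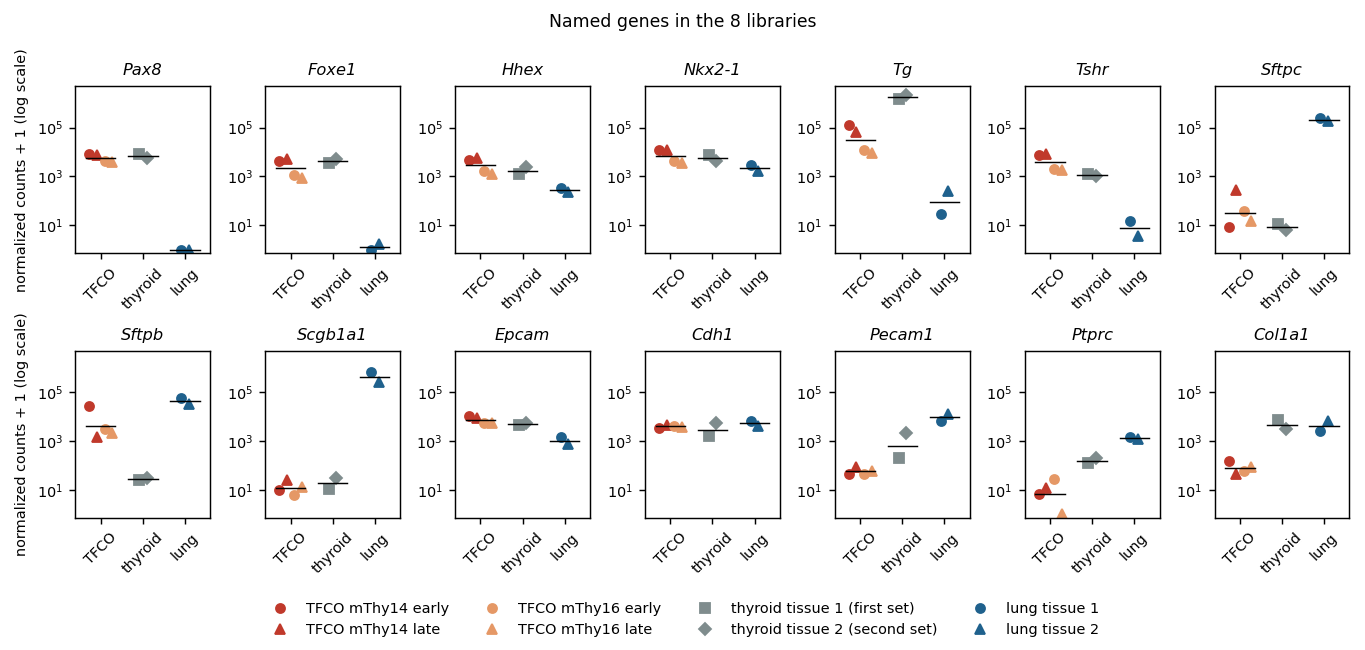
Normalized counts + 1 on a log axis for 14 genes in the 8 libraries, grouped as TFCO, thyroid tissue and lung tissue; bars are means on the log scale, colour and shape give the line, passage or tissue. Pax8 is at 0 in both lung libraries and at 3925 to 8273 in TFCOs, Sftpc shows the reverse order with 241128 and 180943 in lung, and Cdh1 overlaps between the groups.

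Genes of hormone synthesis moved in both directions. Of 21 genes tested (Tff3 did not pass the filter on low values), 10 rose and 3 fell (median log2 difference 3.18, and 3.82 with the set as a term, with calls of 1 higher and 2 lower). Tg, which encodes thyroglobulin, had 126441 and 64646 normalized counts in the early and the late mThy14 culture, 12225 and 9532 in the mThy16 pair, and 27.6 and 263 in lung tissues 1 and 2. The cultures exceeded lung throughout, mThy14 by more than mThy16, and the lung tissues themselves lay apart, with a log2 difference of 8.49 (SE 1.31, adjusted p = 0.00835). Tshr, the receptor for thyrotropin, had 7739 and 8582 normalized counts in the early and the late mThy14 culture, 1963 and 1882 in the mThy16 pair, and 14.2 and 2.70 in lung tissues 1 and 2. The 4 TFCO values were all above those of the thyroid tissues, 1287 and 1087, and the log2 difference from lung was 9.04 (SE 0.86, adjusted p = 0.00154), 8.80 with the set as a term at an adjusted p of 0.0849.

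Iodide handling was uneven. Slc26a7, an anion transporter of the follicular cell, rose by 7.99 (SE 0.76, adjusted p = 0.00151), and Iyd, the deiodinase that recycles iodide, by 5.57 (SE 0.49, adjusted p = 0.00127), with 2865 to 8701 normalized counts in TFCOs against 118 and 60.7 in lung. Slc5a5, the sodium-iodide symporter, was low in the cultures with 24.6 to 292 against 5.86 and 8.76, and its difference of 2.80 (SE 1.10, adjusted p = 0.0945) did not pass. Thyroid tissues 1 and 2 held 333 and 2763. Slc26a4, the anion exchanger pendrin, had 191 to 914 against 88.0 and 6.07 and did not pass (log2 difference 4.18, SE 1.31, adjusted p = 0.0572). Duox2 and its maturation factor Duoxa2 rose by 3.18 (SE 0.63, adjusted p = 0.0179) and 4.78 (SE 1.05, adjusted p = 0.024), from at most 11.7 normalized counts in lung. Cdh16, a cadherin of the follicular cell, rose by 4.13 (SE 0.40, adjusted p = 0.00165), with 4.86 and an adjusted p of 0.0439 with the set as a term. The chloride channel Ano1 overlapped between the groups with 429 to 3994 against 2136 and 1687 and a log2 difference of -0.16 (SE 0.71, adjusted p = 0.874).

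Of the 3 members that fell, Gpx3 was the most abundant in lung. It encodes a secreted glutathione peroxidase that thyroid and lung both use, and it had 339 and 57.2 normalized counts in the early and the late mThy14 culture, 129.7 and 95.0 in the mThy16 pair, and 17936 and 10942 in lung tissues 1 and 2. Its difference on the log2 scale was -6.80 (SE 0.38, adjusted p = 0.000315) and -6.57 with the set as a term (adjusted p = 0.0366). The thyroid tissues held 3521 and 4135, also above every culture. Kcne2, a potassium channel subunit, was at 0 in all TFCO and thyroid libraries and at 352 and 205 in lung. Slc16a10, an aromatic amino acid and hormone transporter, fell by 3.86 on the log2 scale (SE 0.84, adjusted p = 0.0232).

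The surfactant and alveolar type 2 genes divided within themselves. Of 15 tested, 0 rose and 9 fell (median log2 difference -3.17, and -2.69 with the set as a term, with calls of 0 higher and 3 lower). Sftpc, the surfactant protein made by type 2 cells alone in the adult lung, had 7.03 and 266 normalized counts in the early and the late mThy14 culture, 35.7 and 13.4 in the mThy16 pair, and 241128 and 180943 in lung tissues 1 and 2. It differed by -12.64 (SE 0.50, adjusted p = 0.000154) on the log2 scale and -13.37 with the set as a term (adjusted p = 0.0363), and mThy14 late stood above the other TFCO libraries. Sftpa1, a collectin that binds microbes, had 6.71 to 13.5 in TFCOs against 71812 and 34695 in lung. This was a log2 difference of -12.35 (SE 0.83, adjusted p = 0.000546). Lamp3, a membrane protein of lamellar bodies, had 0 to 14.9 against 11496 and 8197 and differed by -11.84 (SE 0.93, adjusted p = 0.000923). The thyroid tissues held of each of these 3 genes at most 9.80 normalized counts.

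Other members of the same list were abundant in the cultures. Sftpb, which encodes the surfactant protein that spreads the lipid film, had 28176 and 1475 normalized counts in the early and the late mThy14 culture, 3031 and 2066 in the mThy16 pair, and 56914 and 34374 in lung tissues 1 and 2. The early mThy14 value was the nearest to lung, the late library of the same line was the lowest, and Sftpb fell, with a log2 difference of -3.46 (SE 0.52, adjusted p = 0.0075) and -3.28 with the set as a term at an adjusted p of 0.16. Thyroid tissues 1 and 2 held 25.0 and 28.6, so every culture was above both of them. Sftpd, a second collectin, had 3046 and 920.1 normalized counts in the early and the late mThy14 culture, 4075 and 4284 in the mThy16 pair, and 17951 and 7579 in lung tissues 1 and 2, with a log2 difference of -2.14 (SE 0.86, adjusted p = 0.1) that did not pass. Thyroid tissue held 14.2 and 1.84. Slc34a2, the phosphate transporter of type 2 cells, had 11119 and 970.1 normalized counts in the early and the late mThy14 culture, 4151 and 3824 in the mThy16 pair, and 32213 and 22898 in lung tissues 1 and 2, against 9.80 and 70.1 in thyroid tissue. It fell by 2.91 directly (SE 0.80, adjusted p = 0.0422), and with the set as a term the difference was -0.19 (adjusted p = 0.9).

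Napsa, the aspartic protease that trims surfactant protein precursors, had 3592 to 14180.3 in TFCOs and 7287 and 4260.1 in lung. This was a log2 difference of -0.07 (SE 0.83, adjusted p = 0.952) with a 95% interval of -2.04 to 1.89. With the set as a term the Napsa difference was 2.45 at an adjusted p of 0.224, and thyroid tissues 1 and 2 held 992 and 5711. Ctsh, a cysteine protease with the same substrates, had 4959 to 11317 and 6467 and 2856, a difference of 0.62 (SE 0.54, adjusted p = 0.394) with an interval of -0.65 to 1.88. Abca3, the lipid transporter of lamellar bodies, had 2280.4 to 4404 and 7097 and 5434 (log2 difference -0.94, SE 0.46, adjusted p = 0.151). The thyroid tissues held 2849 and 3785 of Ctsh and 2595 and 3704 of Abca3. Cd36, a fatty acid receptor that capillaries also carry, fell by 5.87 (SE 0.70, adjusted p = 0.00343). The list summed to 23329.7 to 78454 normalized counts per TFCO library and 333159 and 488414 in the lung tissues. Of its 16 members Hc is not analysed here.

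**Figure D4:**
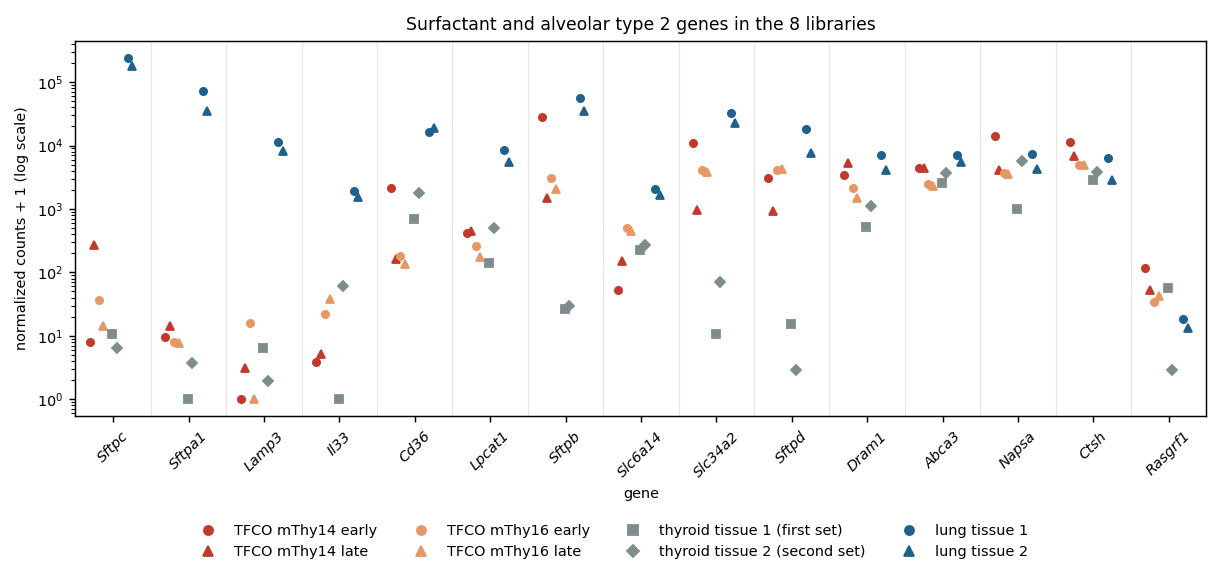
Normalized counts + 1 on a log axis for the 15 surfactant and alveolar type 2 genes, ordered by log2 TFCO minus lung, in each of the 8 libraries. Sftpc, Sftpa1 and Lamp3 stand near background in TFCOs, Sftpb, Slc34a2 and Sftpd stand above both thyroid tissues and below lung, and Napsa and Ctsh overlap with lung.

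Of 15 alveolar type 1 genes tested 11 fell and 0 rose (median log2 difference -5.66, and -4.85 with the set as a term, with calls of 0 higher and 6 lower). Cldn18, a tight junction claudin of alveolar cells, had 3.12 to 7.83 in TFCOs against 17107 and 9419 in lung and differed by -11.10 (SE 0.76, adjusted p = 0.000546), -12.01 with the set as a term at an adjusted p of 0.0366. Clic5, an intracellular chloride channel protein, differed by -7.99 (SE 0.51, adjusted p = 0.000532) and Hopx, a homeodomain protein of type 1 cells, by -6.55 (SE 0.47, adjusted p = 0.000596). Emp2 and Cav1, membrane proteins that endothelium carries too, differed by -5.30 (SE 0.80, adjusted p = 0.0079) and -9.11 (SE 1.38, adjusted p = 0.00788). With the set as a term the Emp2 difference was -2.60. Ager, the receptor best known as a type 1 marker, did not part the groups in the same way. It had 13702 and 19366 normalized counts in the early and the late mThy14 culture, 3754 and 2958 in the mThy16 pair, and 57060.1 and 23371 in lung tissues 1 and 2. The thyroid tissues held 20265 and 15011, and the log2 difference was -2.31 (SE 0.89, adjusted p = 0.091). Aqp5, a water channel, had 1126 to 7782 against 7617 and 3719.5 (log2 difference -1.11, SE 0.70, adjusted p = 0.248), and Vegfa, the endothelial growth factor, 4742 to 16572 against 8254 and 12338 (log2 difference -0.34, SE 0.62, adjusted p = 0.689).

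Airway secretory genes held the most abundant transcript of the lung libraries. Scgb1a1, the secretoglobin of club cells, had 8.43 and 23.9 normalized counts in the early and the late mThy14 culture, 4.95 and 12.3 in the mThy16 pair, and 665857 and 261418 in lung tissues 1 and 2. It differed by -15.12 (SE 0.68, adjusted p = 0.000217), and by -13.58 with the set as a term (adjusted p = 0.0363). Scgb3a2, a related secretoglobin, was at 0 in all 4 TFCO libraries and at 17514 and 9593 in lung, at least 15871-fold lower in TFCOs. Thyroid tissue 2 held 53.5 of it. Bpifa1 and Reg3g, secreted defence proteins of the upper airway, had 1125 and 252 in thyroid tissue 2 against 46.8 and 2.18 in thyroid tissue 1, so their direct differences of -10.50 and -6.47 became -5.95 and -0.15 with the set as a term (adjusted p = 0.092 and 0.959). Of 11 genes tested 0 rose and 9 fell (median log2 difference -6.47, and -3.67 with the set as a term, with calls of 0 higher and 2 lower). Aldh1a1, a retinaldehyde dehydrogenase, remained well expressed in the cultures with 2132 to 3209.9 against 26634 and 18223, yet it fell with -3.16 (SE 0.39, adjusted p = 0.00396). Muc5b, a gel-forming mucin, was -1.85 directly and 1.34 with the set as a term, and did not pass in either fit. Muc5ac, another such mucin, had 245 to 299.8 in TFCOs and 26.0 and 8.09 in lung, and its difference turned from 4.11 (SE 1.96, adjusted p = 0.147) to -2.57 with the set as a term at an adjusted p of 0.364.

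Genes of motile cilia were mostly below lung, though only 6 of 24 passed and 0 rose (median log2 difference -2.85, and -3.46 with the set as a term, with calls of 0 higher and 1 lower). All TFCO libraries lay below both lung tissues for 19 of the 24. Over all genes 13.5% were called lower and 33.3% lay below both lung tissues. Tppp3, a microtubule-binding protein, had 26.0 to 162 against 6181 and 4084 and differed by -6.08 (SE 0.58, adjusted p = 0.00154). Ccdc153, an axonemal protein, differed by -6.37 (SE 1.06, adjusted p = 0.0108). Foxj1, the master factor of motile cilia, parted the lines. It had 35.1 and 442 normalized counts in the early and the late mThy14 culture, 6122 and 6016 in the mThy16 pair, and 1241 and 1019.9 in lung tissues 1 and 2, so mThy16 exceeded lung and mThy14 lay below it, and the log2 difference over both lines was -0.36 (SE 1.54, adjusted p = 0.869). Cfap126, an axonemal gene, had 429.8 and 559 in mThy16, 22.5 and 35.4 in mThy14 and 554 and 268 in lung, whereas Dnah9 and Dnai2, dynein subunits of the ciliary arms, fell over both lines by 3.12 and 2.93 on the log2 scale. Rfx3, another factor of ciliary genes, had 41.6 to 343 against 179 and 212.

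Markers of endothelium, leukocytes and fibroblasts gave the highest counts of lower genes, in lists of 29, 33 and 24 genes tested. These were also long lists. Most members fell in shorter lists of lung epithelium too, with 9 of 11 airway secretory and 11 of 15 alveolar type 1 genes. Over all genes 13.5% were called lower. Of 29 endothelial genes tested 27 fell and 0 rose (median log2 difference -7.66, and -5.11 with the set as a term, with calls of 0 higher and 10 lower). Pecam1, the adhesion molecule of endothelial junctions, had 43.6 and 85.3 normalized counts in the early and the late mThy14 culture, 44.6 and 60.4 in the mThy16 pair, and 6754 and 12605 in lung tissues 1 and 2, and 196 and 2124 in the thyroid tissues. It differed by -7.33 (SE 1.00, adjusted p = 0.00534), and by -3.90 with the set as a term at an adjusted p of 0.0701. Cdh5, the endothelial cadherin, differed by -9.65 (SE 0.74, adjusted p = 0.000838) and Calcrl, an adrenomedullin receptor, by -10.37 (SE 0.97, adjusted p = 0.00145). Clec14a, a lectin of endothelium, had 0 to 2.24 against 4636 and 5906. Kdr, the receptor of Vegfa, had 80.1 to 381 against 3457 and 6096, and Tmem100, a membrane protein of lung endothelium, 103 to 1144 against 4220.0 and 9585, and both fell (-4.58 and -4.32). With the set as a term these differences were -3.57 and -2.14. Sox17, a factor of arterial endothelium that some epithelia use, was the exception among abundant members with 333 to 1862 in TFCOs and 276 and 821 in lung (log2 difference 0.98, SE 0.60, adjusted p = 0.235). The list summed to 1986 to 4215 normalized counts per TFCO library and 83686 and 150326 in the lung tissues.

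Leukocyte genes behaved alike, with 27 of 33 lower, 0 higher and all 33 below both lung tissues in every culture (median log2 difference -5.84, and -4.88 with the set as a term, with calls of 0 higher and 4 lower). The shares over all genes were 13.5% called lower and 33.3% below both lung tissues. Ptprc, the common leukocyte phosphatase CD45, had 5.62 and 10.4 normalized counts in the early and the late mThy14 culture, 25.7 and 0 in the mThy16 pair, and 1390.5 and 1169.5 in lung tissues 1 and 2. Its difference on the log2 scale was -7.57 (SE 0.62, adjusted p = 0.00102), and -6.94 with the set as a term (adjusted p = 0.0454). Cd74, the invariant chain, had 50.6 to 383 against 18246 and 11165 and Ctss, a lysosomal protease of macrophages, 28.1 to 45.8 against 5002 and 2418. Lcp1, an actin-bundling protein, was the most abundant member in the cultures with 265 to 1784 and fell (log2 difference -2.89, SE 0.61, adjusted p = 0.0209). Coro1a, a coronin of leukocytes, fell by 2.81 on the log2 scale, to 138 to 196 against 1614 and 809.

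Of 24 fibroblast and matrix genes 21 fell and 0 rose (median log2 difference -5.83, and -6.37 with the set as a term, with calls of 0 higher and 11 lower). Col1a1 had 155 and 44.8 normalized counts in the early and the late mThy14 culture, 57.4 and 88.3 in the mThy16 pair, and 2656 and 6495 in lung tissues 1 and 2. The thyroid tissues held 7318 and 3048, in the range of lung, and the log2 difference between TFCOs and lung was -5.73 (SE 0.57, adjusted p = 0.0018), -7.00 with the set as a term at an adjusted p of 0.0453. Bgn, a small matrix proteoglycan, differed by -10.10 (SE 0.34, adjusted p = 0.000142), Mgp, an inhibitor of calcification, by -12.79 (SE 1.27, adjusted p = 0.00178) and Inmt, an indolethylamine methyltransferase of lung fibroblasts, by -12.94 (SE 0.98, adjusted p = 0.0008). Fn1, which encodes fibronectin, overlapped between the groups, with 4422 to 7189 against 4355 and 6950.4 and a log2 difference of -0.02 (SE 0.41, adjusted p = 0.967) (95% interval -0.98 to 0.93). Gpc3, a glypican, was -0.49 and did not pass. Npnt, a basement membrane protein that epithelium makes too, had 1406 to 4919 against 10104 and 16497 and fell (log2 difference -2.66, SE 0.48, adjusted p = 0.0135). Mesothelial genes fell for 4 of 6 tested (median log2 difference -4.49, and -4.32 with the set as a term, with calls of 0 higher and 0 lower), among them Msln, a surface protein of mesothelium, at 3024 and 659 in the lung tissues and 10.4 to 33.7 in the cultures. Msln differed by -6.20 directly and by -3.19 with the set as a term. Upk3b and Upk1b, uroplakins of mesothelium, had at most 18.3 and 29.5 in TFCOs against 2478 and 522 and 723 and 328. Gpm6a, a membrane glycoprotein, and Wt1, a mesothelial factor, did not pass (-2.45 and 0.30).

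Smooth muscle and pericyte genes gave 7 lower and 0 higher of 14 (median log2 difference -2.86, and -2.88 with the set as a term, with calls of 0 higher and 0 lower). Tagln, an actin-binding protein of smooth muscle, had 26.0 to 59.0 against 1248 and 3001 and differed by -5.65 (SE 0.63, adjusted p = 0.00264). Mylk, myosin light chain kinase, fell to 277 to 697 against 2810.2 and 4718 (log2 difference -3.12, SE 0.37, adjusted p = 0.00348), whereas Acta2 and Myh11, contractile proteins of the same cells, did not pass (-1.80 and 0.68). Actg2, the enteric smooth muscle actin, had 3074 to 3962 in TFCOs and 5019.6 in thyroid tissue 1, but 13.8 in thyroid tissue 2 and 84.6 and 390.3 in lung, and its difference turned from 4.24 (SE 2.33, adjusted p = 0.195) to -4.16 with the set as a term at an adjusted p of 0.182. Actins are near-identical copies, and how reads were divided among them was not tested. Acta1, the skeletal muscle actin, had 1796 to 2442 against 4.19 and 44.5 and rose (log2 difference 7.11, SE 0.98, adjusted p = 0.00557). Thyroid tissues 1 and 2 held 15925 and 46148 of Acta1. Of 17 skeletal and cardiac muscle genes 6 rose and 7 fell, with 9.83% higher and 13.5% lower over all genes. Myl7, an atrial myosin light chain, had 33.7 to 62.5 in TFCOs and 1209 and 1605 in lung (log2 difference -4.80, SE 1.24, adjusted p = 0.0364). Actc1 and Myh6, cardiac actin and myosin, were -0.87 and -4.93 directly and -4.97 (adjusted p = 0.0627) and -12.19 with the set as a term at an adjusted p of 0.0363, and Atp2a1, the calcium pump of skeletal muscle, rose to 345 to 661 against 44.4 and 171 while the thyroid tissues held 11779.9 and 34901.

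Cells of the gland other than follicular cells left little in the cultures. Pth, parathyroid hormone, was at 0 in all 4 TFCO libraries against 8411 and 25341 in thyroid tissue, and Calca, which encodes calcitonin, had 0 to 9.37 against 19984 and 36502. Of 11 such genes tested 1 rose and 1 fell against lung (median log2 difference -1.17, and 0.42 with the set as a term, with calls of 0 higher and 1 lower), with 9.83% higher and 13.5% lower over all genes. Chga, a granin of C cells and parathyroid, was the gene that rose, with 15.8 to 84.3 against 2.51 and 6.07 in lung and 18303 and 29918 in thyroid tissue. The calcium receptor Casr had 4.47 to 18.7 against 1.68 and 2.70 and did not pass. Cidec, a lipid droplet protein of adipocytes, was the gene that fell, to 1.04 to 8.43 against 551 and 148, and Adipoq and Plin1, of the same cells, had 0 to 12.6 and 5.20 to 22.5 against 387 and 41.1 and 220.3 and 13.5. Thyroid tissues 1 and 2 held 3.27 and 1142 of Adipoq.

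Some genes of the epithelial lists lay at like levels in TFCOs and lung. Whole lung holds other cells besides epithelium, and which of its cells carried these transcripts was not tested. Among 81 tested members of 4 lists (junctions and polarity, simple keratins, splicing with proteases and surface proteins, and foregut or epithelial factors), 53 had at least 100 normalized counts in each of the 6 libraries. Of these 53 genes 22 lay 1 or more higher in TFCOs on the log2 scale, 6 lay 1 or more lower, and 14 lay less than 1 apart both directly and with the set as a term, 26.4% of the 53. Over all genes at 100 or more in these libraries the same held for 3688 of 6977 (52.9%), a larger share. The 14 were chosen for their small difference, which is therefore not a finding, and their 95% intervals reached up to 1.78 on the log2 scale. Among them were Tjp1, Marveld2 and Patj of tight junctions, Jup, Pkp2, Ppl and Evpl of desmosomes and the cornified plaque, the keratin Krt19, the motor Myo5b, the membrane protein Krtcap3, and the factors Cebpa, Etv5 and Irx3. Jup, plakoglobin, had 5708 and 6451 normalized counts in the early and the late mThy14 culture, 6155 and 5206 in the mThy16 pair, and 4383 and 6819.6 in lung tissues 1 and 2. Etv5, an ETS factor downstream of FGF10 in the lung bud, had 4649.5 and 3111 normalized counts in the early and the late mThy14 culture, 4176 and 3451 in the mThy16 pair, and 2748 and 1798 in lung tissues 1 and 2 (log2 difference 0.77, SE 0.37, adjusted p = 0.152), above 829.5 and 587 in the thyroid tissues. Krt19 had 1856 to 4214 against 3353 and 1786, and Tjp1, the scaffold ZO-1, 2325 to 6710.5 against 4035 and 5599.5.

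**Figure D5:**
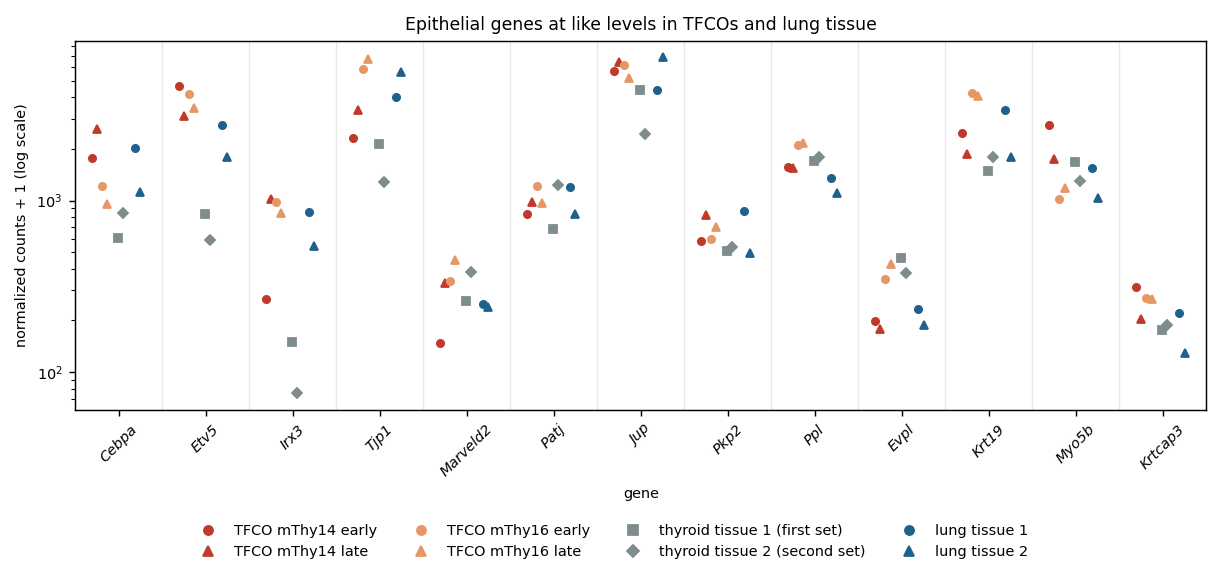
Normalized counts + 1 on a log axis for 13 of the 14 epithelial genes that lay less than 1 apart on the log2 scale between TFCOs and lung, in each of the 8 libraries. TFCO and lung points stand at like heights because the genes were chosen for it, and every point of these 6 libraries is at 100 or more.

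Cdh1, the cadherin of adherens junctions, had 3286 and 4700.4 normalized counts in the early and the late mThy14 culture, 3981 and 3871 in the mThy16 pair, and 6894 and 3967 in lung tissues 1 and 2, and the groups overlapped (log2 difference -0.41, SE 0.61, adjusted p = 0.619, and 1.28 with the set as a term at an adjusted p of 0.37). Epcam, a membrane glycoprotein of nearly all simple epithelia, had 11057 and 8764 normalized counts in the early and the late mThy14 culture, 5497 and 5569 in the mThy16 pair, and 1442 and 725 in lung tissues 1 and 2. It rose by 2.85 (SE 0.49, adjusted p = 0.0114), 3.10 with the set as a term at an adjusted p of 0.141. Of 27 junction and polarity genes tested 8 rose and 3 fell (median log2 difference 0.37, and 0.65 with the set as a term, with calls of 0 higher and 0 lower). Cldn4, Cldn7, Lsr, Pkp3 and Dsp, all of tight junctions or desmosomes, rose by 3.22, 1.39, 2.03, 1.96 and 1.26. Among the 3 that fell, F11r, a junctional adhesion molecule, had 1.98 to 9.84 in TFCOs and 3.27 in thyroid tissue 1 against 2356 in thyroid tissue 2 and 4632 and 3362 in lung, and its difference of -9.15 was -0.04 with the set as a term at an adjusted p of 0.988.

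The splicing regulators Esrp1 and Esrp2, which set epithelial isoforms, rose by 2.55 (SE 0.40, adjusted p = 0.0086) and 2.28 (SE 0.35, adjusted p = 0.00795), and the membrane protease St14 by 2.51 (SE 0.35, adjusted p = 0.00562), with 4301 to 4669 against 928 and 662. Of 21 genes of that list 5 rose and 1 fell (median log2 difference 0.31, and 1.23 with the set as a term, with calls of 0 higher and 0 lower). Spint2, an inhibitor of such proteases, moved with the sets, since TFCOs had 21.2 to 78.2, thyroid tissue 1 had 22.9, thyroid tissue 2 had 5465 and lung had 4245 and 2162, and the difference turned from -5.98 to 1.86. Muc1, a transmembrane mucin, had 109.6 to 1327 against 4787 and 3713 (log2 difference -3.26, SE 0.98, adjusted p = 0.052). Mal2, a protein of apical transport, had 1954 to 3763 against 8350.3 and 5129.7 (log2 difference -1.20, SE 0.56, adjusted p = 0.137, and 0.18 with the set as a term at an adjusted p of 0.93). The 5 simple keratins held 0 genes at an adjusted p under 0.05 with limma, 2 at an unadjusted p under 0.05, 0 with edgeR, 2 with DESeq2 and 1 with voom. Their median log2 difference of 0.09 was -0.04 after quantile normalization and -0.04 with libraries scaled to the same total, and 0.55 with the set as a term. Krt8 had 3605 to 17272 against 3497 and 1596 and Krt7 225 to 5569 against 8359.5 and 4104, with the lines far apart in both.

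Among foregut and epithelial factors 8 rose and 3 fell of 28 (median log2 difference 0.99, and -0.28 with the set as a term, with calls of 1 higher and 1 lower). Sox9, a factor of progenitor epithelium in the lung bud and of several adult glands, had 6769 and 9208 normalized counts in the early and the late mThy14 culture, 4854 and 3917 in the mThy16 pair, and 10.1 and 7.41 in lung tissues 1 and 2, and 3807 and 2343 in the thyroid tissues. Its log2 difference of 9.25 (SE 0.45, adjusted p = 0.000217) was 8.55 with the set as a term (adjusted p = 0.0366). Ehf, an epithelial ETS factor, rose by 3.06 (SE 0.52, adjusted p = 0.0111), Grhl2, a regulator of junction genes, by 1.91 (SE 0.35, adjusted p = 0.0141), Pax9, a pharyngeal pouch factor, by 5.76 (SE 0.79, adjusted p = 0.00557) and Etv4, an FGF target, by 6.02 (SE 1.17, adjusted p = 0.0167). Gata6, a factor of lung endoderm and mesenchyme, had 43.6 to 161 against 666 and 469.8 and fell (log2 difference -2.90, SE 0.68, adjusted p = 0.0286). Sox2, the factor of airway epithelium, had 12.5 to 26.7 against 322 and 131 (log2 difference -3.52, SE 1.10, adjusted p = 0.0566). Foxp1, a forkhead factor of lung epithelium and stroma, had 379 to 749 against 1458 and 1911 and fell (log2 difference -1.67, SE 0.42, adjusted p = 0.035). With the set as a term the Foxp1 difference was -0.91. Foxa1 and Foxa2, pioneer factors of endoderm, had 15.6 to 551 and 124 to 800.1 in TFCOs against 695 and 525 and 911 and 396 in lung. Of 17 positional factors 1 rose and 4 fell, with 9.83% higher and 13.5% lower over all genes. Among those that fell were Tbx4 and Tbx5, T-box factors of the lung mesenchyme, at -5.98 and -7.95. Hoxb3, an anterior Hox gene, rose by 3.50 (SE 0.72, adjusted p = 0.0201) and was 1.40 with the set as a term at an adjusted p of 0.367. Tbx3 fell to 43.6 to 235 against 859 and 2253, and Tbx2 and Hoxb2 were -1.47 and 1.00 and did not pass.

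Basal and squamous genes rose directly but moved with the sets. Of 12 tested 7 rose and 0 fell, and every TFCO library lay above both lung tissues for 12 of them. The shares over all genes were 9.83% called higher and 34.4% above both lung tissues. The count of higher genes was 8 with DESeq2, 2 with edgeR and 3 with voom. Krt6a, a keratin of stressed and stratified epithelium, had 536 and 849 normalized counts in the early and the late mThy14 culture, 2732 and 2817 in the mThy16 pair, and 0 and 0 in lung tissues 1 and 2. Against 3 reads over the lung tissues TFCOs were at least 1529-fold higher. Krt6a was at 0 in thyroid tissue 2, but thyroid tissue 1 held 687, and the difference of 10.42 (SE 2.68, adjusted p = 0.0361) became 0.99 with the set as a term at an adjusted p of 0.788. Krt15, a basal keratin, rose (log2 difference 4.41, SE 0.93, adjusted p = 0.0212, and 2.02 with the set as a term at an adjusted p of 0.362), and Ngfr and Sprr1a were 1.13 and 3.05 and did not pass. Krt13, Krt17 and Krt4 moved alike, from 8.59, 7.49 and 7.21 to 0.88, 1.17 and 0.25. Krt5, the keratin of basal cells, had 228 to 1485 against 9.21 and 6.07 and went from 6.33 (SE 1.26, adjusted p = 0.018) to 2.78. Keratins are a family of close relatives, and how reads were divided among them is not given in the sources used here.

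Several secretory and defence genes parted the lines, and some of these overlapped between TFCOs and lung. Of 19 tested 2 rose and 5 fell (median log2 difference -1.69, and -0.70 with the set as a term, with calls of 0 higher and 0 lower), with 9.83% higher and 13.5% lower over all genes. Ltf, the iron-binding lactoferrin, had 33.7 and 405 normalized counts in the early and the late mThy14 culture, 52989 and 55098 in the mThy16 pair, and 264 and 225 in lung tissues 1 and 2, so mThy16 lay far above lung and mThy14 on either side of it. C3, a complement component, had 807 and 225 normalized counts in the early and the late mThy14 culture, 16192 and 17629.8 in the mThy16 pair, and 22510.4 and 5479 in lung tissues 1 and 2. Clu, the chaperone clusterin, and Cp, the ferroxidase ceruloplasmin, rose, with 5316 to 62331 and 7072 to 47942 against 3415 and 1743 and 3944 and 2805 (log2 differences 3.17 (SE 0.90, adjusted p = 0.0447) and 2.64 (SE 0.70, adjusted p = 0.0392)). Neither passed with edgeR (adjusted p = 0.0503 and 0.0513). With the set as a term the Clu and Cp differences were 3.73 and 2.25 (adjusted p = 0.352 and 0.456). Between mThy14 and mThy16, 491 of 14703 genes (3.34%) had an adjusted p under 0.05 with limma, 143 higher and 348 lower in mThy14, and 290 genes passed with the passage as a replicate block. Without the early or the late mThy16 library 38 and 25 passed, and without the late mThy14 library 235. Of the genes named here, Ltf was -8.83 on the log2 scale between mThy14 and mThy16, C3 -5.31 and Foxj1 -5.58, whereas Foxe1 was 2.21 and Hhex 1.81. Wfdc2, a protease inhibitor of airway and gland, had 2227 to 4367 in TFCOs against 14654 and 7336 in lung (log2 difference -1.85, SE 0.73, adjusted p = 0.0941, and 0.28 with the set as a term at an adjusted p of 0.903). Anxa1, an annexin, was 0.18 and did not pass.

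Of 30 cell cycle genes tested 3 rose and 0 fell (median log2 difference 0.74, and 1.42 with the set as a term, with calls of 0 higher and 0 lower), with 9.83% higher and 13.5% lower over all genes. The 3 that rose were the replication helicase subunits Mcm2, Mcm6 and Mcm7 at 1.35, 1.51 and 1.62. Top2a, a topoisomerase of dividing cells, had 753 and 138 normalized counts in the early and the late mThy14 culture, 1839 and 1991 in the mThy16 pair, and 287 and 238 in lung tissues 1 and 2, with late mThy14 below lung and the others above it. Mki67, a nuclear protein of dividing cells, had 11.4 to 57.4 against 261 and 231 (log2 difference -2.79, SE 0.94, adjusted p = 0.067), and it moved with the sets, with 54.4 and 329 in thyroid tissues 1 and 2 and a difference of -0.21 once the set was a term. Rrm1, Stmn1 and Pcna were 1.37, 1.24 and 0.32 and did not pass. With the set as a term they were 0.97, -0.27 and -0.26. Ccnd1, cyclin D1, had 1373 to 12018 against 2841 and 4108, and mThy14 lay below lung while mThy16 lay above it.

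The medium acts on the cAMP, Wnt, FGF, EGF and TGFβ pathways, and the counts of their targets stand beside 9.83% higher and 13.5% lower over all genes. Of 13 cAMP targets 2 rose and 0 fell (median log2 difference -0.35, and -0.36 with the set as a term, with calls of 0 higher and 0 lower), with Nr4a2, a nuclear receptor induced by cAMP, at 929 to 2614 against 82.9 and 203 (log2 difference 3.52, SE 0.68, adjusted p = 0.0162). Pde4b, a cAMP phosphodiesterase, and Dusp1, a phosphatase of MAP kinases, were -1.14 and -1.37 and did not pass. With the set as a term these were 0.23 and -2.44. Fos had 2063 to 3235 against 3335 and 1611 (log2 difference 0.23, SE 0.49, adjusted p = 0.742). Of 13 Wnt targets 1 rose and 2 fell (median log2 difference 0.08, -0.05 with libraries scaled to the same total and -0.43 with the set as a term). Lgr4, a receptor of R-spondin, rose by 4.02 (SE 0.42, adjusted p = 0.00209), and the thyroid tissues held 2598 and 1654, while Nkd1, a Wnt inhibitor, fell by 3.06 (SE 0.39, adjusted p = 0.00432). Axin2, a broad Wnt readout, had 173 to 599 against 339 and 337, and Tnfrsf19, a receptor, fell to 0 to 57.0 against 411 and 667. Tnfrsf19 differed by -5.33 directly and by -2.27 with the set as a term. Sp5 and Notum, Wnt targets, were high in mThy16, with 1846 and 1432 of Sp5 against 36.5 and 60.4 in mThy14 and 60.3 and 23.6 in lung, and neither passed (2.85 and 2.03). With the set as a term the 2 differences were -0.07 and 0.13. Tcf7 was -0.97. Of 16 FGF and EGF targets 2 rose and 2 fell (median log2 difference 0.88, and 0.54 with the set as a term, with calls of 0 higher and 0 lower), with Spry4, a feedback inhibitor, at 7.29 to 42.2 against 272 and 492 (log2 difference -4.14, SE 0.65, adjusted p = 0.0086) and Phlda1 at 1.64 (SE 0.36, adjusted p = 0.0239). Egr1, an immediate early gene, had 3066 to 16974 against 2208 and 1114 (log2 difference 2.09, SE 0.72, adjusted p = 0.0703), and Spred1 and Dusp6 were 0.99 and -0.95 and did not pass. Of 11 TGFβ targets 2 rose and 0 fell (median log2 difference -0.01, 0.34 after quantile normalization and -1.04 with the set as a term). These were Ccn2, a matricellular protein, with 59120.5 and 71828 normalized counts in the early and the late mThy14 culture, 29426 and 25691 in the mThy16 pair, and 2336 and 3880.0 in lung tissues 1 and 2 (log2 difference 3.81, SE 0.59, adjusted p = 0.00842), and Tgfbi, an adhesion protein, with 48676 and 11218 normalized counts in the early and the late mThy14 culture, 5633 and 5279.6 in the mThy16 pair, and 1559.7 and 815 in lung tissues 1 and 2 (log2 difference 3.32, SE 0.69, adjusted p = 0.02). Smad7, an inhibitor of the pathway, had 376 to 436 against 641 and 1219 (log2 difference -1.12, SE 0.45, adjusted p = 0.0987), and Smad6 and Bhlhe40 were -1.52 and 0.83.

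Over all genes, those called higher with the largest differences that kept at least 0.5 of their size with the set as a term included Pax8, Foxe1, Scg5, Sprr2e, Slc14a2, Sox9, Trpm3, Tshr and Plekhs1. Scg5, a chaperone of prohormone convertase 2, had 28611 and 34605 normalized counts in the early and the late mThy14 culture, 8459 and 7691 in the mThy16 pair, and 16.8 and 14.8 in lung tissues 1 and 2. Its difference on the log2 scale was 9.89 (SE 0.61, adjusted p = 0.000467) and 9.62 with the set as a term at an adjusted p of 0.0454. Slc14a2, a urea transporter, had 1496 to 10853 against 9.21 and 2.02 (log2 difference 9.42, SE 0.87, adjusted p = 0.00139), and Trpm3, a cation channel, 799 to 2451 against 3.35 and 0.674 (log2 difference 9.12, SE 0.89, adjusted p = 0.00165). Plekhs1 had 517 and 479 normalized counts in the early and the late mThy14 culture, 4775 and 4908 in the mThy16 pair, and 0.838 and 4.72 in lung tissues 1 and 2, with mThy16 above mThy14 (log2 difference 8.90, SE 1.64, adjusted p = 0.0143). Sprr2e, a cornified envelope protein of a family with near-identical copies, was at 0 in both lung tissues and at 375 to 1404 in TFCOs, at least 738-fold higher. The 10 genes that fell most by the same rule were Scgb1a1, Scgb3a2, Inmt, Mgp, Sftpc, Sftpa1, Clec14a, Lamp3, Sparcl1 and Thbd. Sparcl1, a matricellular protein of vessels and stroma, had 0 to 9.84 against 10766 and 8030.2 (log2 difference -11.42, SE 0.58, adjusted p = 0.000217), and Thbd, the anticoagulant receptor thrombomodulin, 0 to 18.3 against 7398 and 15744 (log2 difference -11.37, SE 1.02, adjusted p = 0.00133).

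In TFCOs the 5 leading genes included Eef1a1, App, Eef2 and Pabpc1, with Eef1a1, an elongation factor, at 1.32% on average, and Tg ranked 9 at 0.394% (0.0787 to 0.922% per library). In lung they were Scgb1a1 at 3.91%, Sftpc at 1.79%, mt-Co1, Lars2 and Sftpa1. The 20 leading genes together took 9.62% in TFCOs and 12.2% in lung. Lars2, whose level moved with the set, was among the 5 leading genes of lung.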

How the data were processed

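RNA of 8 mouse libraries (2 in each of 4 groups) was analysed. The authors deposited normalized counts, a signal of read counts per gene divided by a size factor, for 16119 genes. The methods name DESeq2, and the submitters' processing notes name BWA 0.6.2-r126 with builds mm10 and hg38, with no role given. The labels describe an adapted CEL-Seq library and the methods a stranded polyA kit, so strand use in counting is not known. Whole reads were recovered from all values (100% within 0.01). Values were tested as log2(normalized counts + 1) with limma 3.58.1 (R 4.3.3, trend, Benjamini-Hochberg) over the 14703 genes that reached 10 in 2 or more libraries, with the passages of a line averaged and thyroid tissue in the fit. The pseudocount of 1 lowers differences of weak genes. edgeR 4.0.16, DESeq2 1.42.0 and voom were run on the recovered reads as alternatives, and fits were tested on simulated data. Early and late libraries of a line come from 1 animal, and no shared animal links TFCO and tissue numbers. Nothing states that the tissues of a group came from separate animals, so p-values measure the spread between these samples. Genes were named by abundance in each list, by size of change and from a list of markers. Other genes, among them list members that went against their list, were chosen after their values were seen. Members and lists were chosen with earlier results of these data known. Ly6a and Lyz2 are not analysed here, and a few other genes that the rule names are not reported.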

Additional observations from a re-analysis of the deposited data

Results flagged for a closer look

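The 2 TFCO lines differed in their distance from lung for 17 of the genes named above, by limma's test of mThy14 against mThy16 over all genes (adjusted p under 0.05). Over all genes 491 of 14703 (3.34%) passed this test. Since both lines are set against the same lung tissues, the difference between the lines is the difference of their contrasts. The log2 difference mThy14 minus mThy16 was above 0 for Slc26a7 2.12, Foxe1 2.21, Hhex 1.81, Scg5 1.96. It was below 0 for Muc1 -3.10, Cfap126 -4.07, Sp5 -5.08, Ltf -8.83, Cp -2.14, Clu -2.90, Rrm1 -1.82, Ccnd1 -2.76, Ano1 -2.36, Krt7 -3.60, Krt8 -2.05, Foxj1 -5.58, C3 -5.31. Each line is 1 culture from 1 animal and each value rests on its early and late library, so the difference describes these 2 cultures.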

How the results depend on the processing

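The counts of 1445 higher and 1990 lower genes became 898 and 1581 (no mean-variance trend), 3468 and 3511 (only TFCOs and lung in the fit), 3405 and 3220 (4 TFCO libraries as separate samples), 2303 and 2181 (replicate block (line)), 29 and 145 (set of libraries as a term), 796 and 1348 (edgeR on recovered reads), 2860 and 2832 (DESeq2 on recovered reads). Leaving out 1 library gave 62 to 3475 higher and 186 to 3518 lower genes, lowest without a lung tissue and highest without a thyroid tissue. The count of 491 genes between the lines became 290 (replicate block (passage)), and 25 to 343 when 1 TFCO library was left out. The cause of these moves was not tested. Quantile normalization moved the median of all genes by 0.27 and scaling to the same total by -0.13 on the log2 scale, and the share of higher calls went from 42.1% to 49.5% and 35.1%, and with quantile normalization the median of the simple keratins became -0.04, that of the TGFβ targets 0.34. Of the 200 named genes, 82 lost their call with the set as a term, 69 without lung tissue 1 and 74 without lung tissue 2. Between a main limma value past the threshold and its alternatives the sign did not change for any named gene, and 95 values of 36 genes changed sign with neither past it. Lars2 and Spint2 did not pass in the main fit but passed with DESeq2 (adjusted p = 0.000802 and 0.000403). Their main differences of -8.38 and -5.98 became 1.22 and 1.86 with the set as a term.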

Other observations

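Several genes outside the lists and the naming rule separated TFCOs from lung with the set as a term, and they are named here after their values were seen. Gjb1, a gap junction connexin of glands and liver, had 2228 to 8389.6 normalized counts in TFCOs against 11.7 and 6.74 in lung, and thyroid tissues 1 and 2 had 7744 and 4385, with log2 differences of 8.78 (SE 0.60, adjusted p = 0.000546) and 7.96 with the set as a term at an adjusted p of 0.0488. Scin, an actin-severing protein, had 1865 to 5196 in TFCOs, 5.03 and 8.09 in lung and 3826 and 3474 in thyroid tissue (log2 difference 8.86, SE 0.46, adjusted p = 0.000237, and 8.72 with the set as a term at an adjusted p of 0.0366). Hmga2, a chromatin protein of growing cells, had 209 to 485 in TFCOs, 0.838 and 0.674 in lung and 281 and 227 in thyroid tissue (log2 difference 7.70, SE 0.71, adjusted p = 0.00136, and 7.40 with the set as a term at an adjusted p of 0.0452). Each of the 3 lay within 1 on the log2 scale between the thyroid tissues.

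Others were higher in every culture than in lung and in both thyroid tissues. Ptprn, a membrane protein of secretory granules, had 191098 and 21012 normalized counts in the early and the late mThy14 culture, 6982 and 7089.5 in the mThy16 pair, and 97.2 and 47.2 in lung tissues 1 and 2, with early mThy14 far above the other cultures and 897 and 411 in thyroid tissues 1 and 2 (log2 difference 8.26, SE 0.98, adjusted p = 0.00343). Dlx5, a homeobox gene, had 133 to 364 in TFCOs against 0 and 1.84 in thyroid tissue and was at 0 in lung (log2 difference 7.66, SE 1.00, adjusted p = 0.00464, and 9.16 with the set as a term at an adjusted p of 0.0383). Sprr2g and Sprr2f, cornified envelope genes with near-identical relatives, had 186 to 1077 and 131 to 709.8 in TFCOs, 0 and 0 and 1.09 and 0 in thyroid tissue, and were at 0 in lung.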
